A study of Mus musculus with 9 samples.

Results

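The comparison set 2 knockdown cultures of the same cell line against each other: 3 libraries of cells carrying the hairpin shEya3_KD2 against 3 libraries of cells carrying the hairpin shEya3_KD1. These are 6 of the 9 libraries of the study. The members are all genes that passed a low-count filter, 15914 of the 55418 gene symbols in the count table. The other 3 libraries carried a scrambled hairpin (SCR) and give reference levels. They did not enter the contrast, but they were part of the filter, the scaling and the estimate of spread behind the p-values.

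The cells were 66cl4, a mouse mammary tumour line labelled as triple negative breast cancer. All 3 groups were transduced with an shRNA vector and then kept in puromycin at 2.5 µg/ml, the controls included, so selection and transduction are shared by every library. The hairpins of shEya3_KD1 (KD1 below) and shEya3_KD2 (KD2 below) are both directed against Eya3. The labels call the 3 libraries of a group biological replicates and do not say whether they came from separate transductions, so the p-values measure only the spread between these libraries. A difference between the hairpins and a difference between the cultures that carry them cannot be told apart.

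Eya proteins are transcriptional co-activators without a DNA-binding domain of their own: they reach DNA through homeodomain partners and also carry a phosphatase domain. Type I interferon response genes are a set of antiviral genes switched on by an interferon-activated transcription factor complex that binds a short promoter element. Tumour cells can run this programme themselves, through sensors of nucleic acids in the cytosol and through secreted interferon acting on its own receptor.

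The cultures separated along the first principal component of the 6 libraries, which held 84.3% of the variance in log2 CPM (CPM are read counts scaled by library size and TMM factor), against 6.13% for the second. Of the genes tested, 7889 differed at an adjusted p of 0.05 (edgeR quasi-likelihood F test, Benjamini-Hochberg method), or 49.6%. Of these, 4301 were higher in KD2 (27% of genes tested) and 3588 were lower (22.5%). Most of these differences were small: the median absolute log2 fold change was 0.31 over all genes and 0.53 over the genes called. Differences over 2-fold were found in 1154 genes called higher (7.25%) and 822 called lower (5.17%), and differences over 16-fold in 197 (1.24%) and 100 (0.628%). The median log2 fold change over all genes tested was 0.003, and 54.3% of genes had 3 libraries of KD2 wholly above or wholly below those of KD1.

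**Figure D1:**
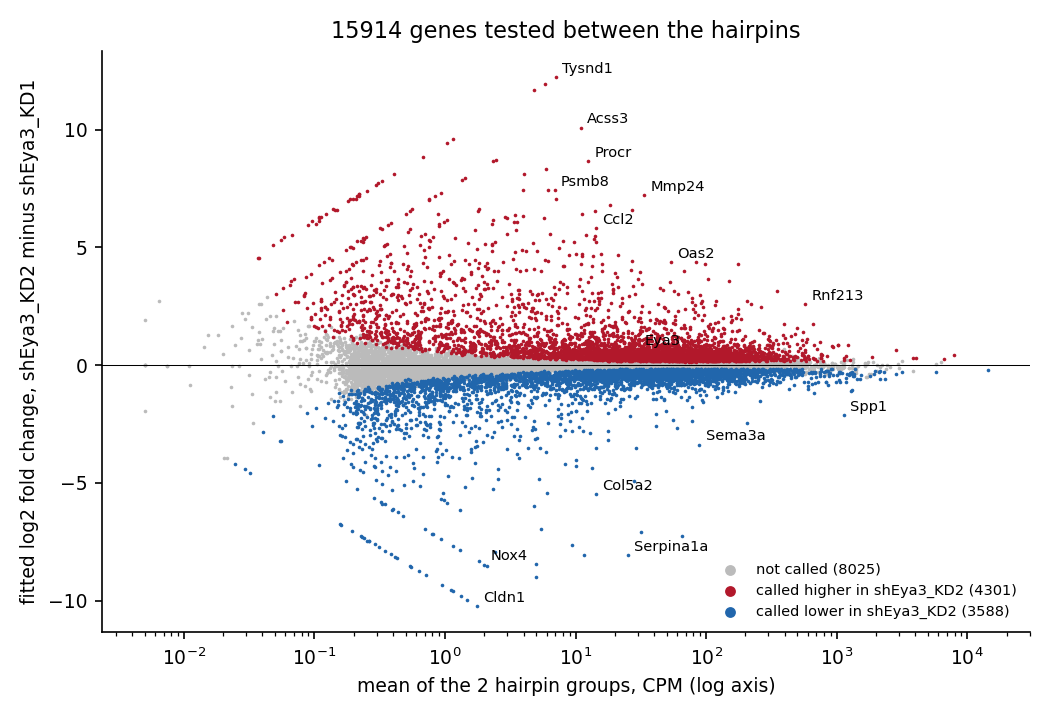
Fitted log2 fold change of KD2 minus KD1 (vertical axis) against the mean level of the 2 hairpin groups in CPM (horizontal log axis), 1 point per gene tested. The 4301 genes called higher are red, the 3588 called lower are blue and the rest are grey; Tysnd1, Acss3 and Procr lie near the top, and Cldn1, Nox4 and Serpina1a near the bottom.

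For most of the large differences the scrambled-hairpin level lay nearer to KD2 than to KD1. Among the 1154 genes over 2-fold higher in KD2, the SCR mean lay above both hairpins in 48.1%, between them in 46.0% and below both in 5.89%, and it was nearer to KD2 in 76.3%. Among the 822 genes over 2-fold lower in KD2, it lay above both in 12.8%, between in 55.7% and below both in 31.5%, and was nearer to KD2 in 67.0%.

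Eya3 itself (ENSMUSG00000028886.15, chromosome 4, 132638987 to 132724765 in mm10) was lower in both cultures than in the scrambled control. Its level was 24.9, 21.5 and 22.9 CPM in the KD1 libraries and 38.7, 39.8 and 34.1 CPM in the KD2 libraries, against 68.1, 79.0 and 71.7 CPM in SCR. KD2 thus kept more Eya3 transcript than KD1 with no overlap, a log2 fold change of 0.70 ± 0.08 (SE, n = 3 per group; edgeR adjusted p = 6.98e-06). The difference was not called when the test asked for more than 1.5-fold (edgeR glmTreat, adjusted p = 0.192).

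The partners of Eya3 differed in both directions. Six4, a homeodomain partner, was at 34.8, 32.0 and 32.8 CPM in KD1 and 43.7, 48.8 and 39.0 CPM in KD2, 0.40 ± 0.08 higher on the log2 scale. Six5 differed by -0.69 ± 0.11. Of the 9 members of the Eya-Six-Dach family tested, 3 were higher, 4 were lower and 2 were not called, with a median log2 fold change of -0.22 (-0.14 without KD2 replicate 3). Eya2 (-1.05 ± 0.29) and Eya4 (-1.82 ± 0.38) were lower in KD2 at levels near or below 1 CPM. Dach1, a co-repressor in the same network, had 25 counts over the KD1 libraries and 1 over those of KD2, a ratio of 25.7 (95% counting interval 4.21 to 1055), against 469 counts in SCR. Eya1 (0.20, adjusted p = 0.0528) and Six3 (-0.22, adjusted p = 0.0711) were not called by edgeR.

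The antiviral genes had the largest share of members called higher among the 54 lists. Of 54 type I interferon effector genes tested, 51 were higher in KD2, 2 were lower and 1 was not called, a share of 94.4% called higher against 27% of all genes. Their median log2 fold change was 2.61, and 50 of them were over 2-fold higher. Their CPM summed to 1382, 1372 and 1296 in KD1, 2400, 2537 and 2486 in SCR, and 5282, 7998 and 5412 in KD2, so SCR stood between the hairpins.

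The promoters of 3 of these genes are shown because they carry the element through which interferon acts on these genes. Each is the 250 bases before the gene's start, read on the gene's strand from RefSeq promoters of GRCm38.p6, with capitals marking matches on either strand to the interferon-stimulated response element (ISRE), searched as GAAA, any 2 bases, GAAA, and merged where they overlap. Isg15 lies on the minus strand (chr4:156200819-156201068) and its matches start 78, 72 and 66 bases before the gene. Ifit3 lies on the plus strand (chr19:34583279-34583528) with matches starting 156 and 122 bases before the gene. Rsad2 lies on the minus strand (chr12:26456453-26456702) with a match starting 120 bases before the gene.
Isg15: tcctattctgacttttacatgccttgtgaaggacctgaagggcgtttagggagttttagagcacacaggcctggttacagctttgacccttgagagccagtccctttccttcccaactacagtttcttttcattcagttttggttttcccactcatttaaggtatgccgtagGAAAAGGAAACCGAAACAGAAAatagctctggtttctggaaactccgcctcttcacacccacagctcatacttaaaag
Ifit3: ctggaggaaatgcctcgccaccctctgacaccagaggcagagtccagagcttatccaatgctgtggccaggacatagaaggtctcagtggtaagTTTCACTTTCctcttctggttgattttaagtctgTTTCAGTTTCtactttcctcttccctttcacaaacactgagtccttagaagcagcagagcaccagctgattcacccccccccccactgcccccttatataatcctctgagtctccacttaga
Rsad2: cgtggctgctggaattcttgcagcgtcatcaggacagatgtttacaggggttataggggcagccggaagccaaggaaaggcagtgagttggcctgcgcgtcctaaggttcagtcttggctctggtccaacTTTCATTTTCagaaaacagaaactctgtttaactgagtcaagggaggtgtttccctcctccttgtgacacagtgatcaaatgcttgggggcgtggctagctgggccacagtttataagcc

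Isg15, a ubiquitin-like protein attached to other proteins during viral infection, was at 18.6, 22.1 and 20.4 CPM in KD1 and 137, 195 and 148 CPM in KD2, 2.97 ± 0.13 higher on the log2 scale (SE, n = 3 per group; edgeR adjusted p = 9.60e-10). Ifit3, which takes part in the recognition of foreign RNA, was at 1.92, 1.71 and 1.90 CPM in KD1 and 24.8, 42.0 and 23.5 CPM in KD2 (4.02 ± 0.25). Rsad2 encodes viperin, an enzyme that makes a chain-terminating nucleotide, and was at 8.17, 7.63 and 8.27 CPM in KD1 and 108, 168 and 108 CPM in KD2 (3.99 ± 0.19). None of these groups overlapped, and in each gene KD2 replicate 2 was the highest library.

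Zbp1, a sensor of left-handed nucleic acid that can start cell death, had the largest log2 fold change in the list at 5.50 ± 0.38. It was at 0.475, 0.796 and 0.519 CPM in KD1, 20, 41.6 and 21.8 CPM in KD2 and 4.43, 5.03 and 4.81 CPM in SCR. Mx1 (4.84 ± 0.31) and Mx2 (4.72 ± 0.29), GTPases that block virus replication, and Cmpk2 (4.43 ± 0.22), the mitochondrial nucleotide kinase next to Rsad2, followed. Oas2, which makes the activator of the RNA-cutting enzyme RNase L, was at 5.62, 4.52 and 4.61 CPM in KD1 and 73.4, 150 and 85.4 CPM in KD2 (4.38 ± 0.32).

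The 2 effectors that were lower in KD2 were Epsti1 (-1.93 ± 0.23) and Ifi27l2a (-1.24 ± 0.21). Epsti1 was at 2.92, 3.25 and 4.06 CPM in KD1 and 0.546, 1.07 and 1.16 CPM in KD2. Ifitm2, a membrane protein that hinders virus entry, was at -0.15 (edgeR adjusted p = 0.132). The size of the programme also varied within KD2: measured against the KD1 mean, the median effector stood at 2.29, 2.92 and 2.48 on the log2 scale in KD2 replicates 1, 2 and 3, and at 0.92 to 1.04 in the SCR libraries. KD2 replicate 2 was also the shallowest library, with 27758862 counts; its part in the spread was not tested. Without any 1 library the median stayed between 2.39 and 2.74. Rnf213, a large E3 ligase among the genes with the greatest gain in CPM, depended on it as well: 168, 148 and 175 CPM in KD1, 728, 1648 and 580 CPM in KD2, and a log2 fold change of 2.59 ± 0.40 that was 2.00 without KD2 replicate 2.

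The promoter element was counted over all genes with a RefSeq promoter, 10191 of those tested, in the window from 250 bases before to 50 bases after the start. Some genes had several such windows, and a gene was counted if any of its windows held a match. Genes with more windows thus had more chances of a match. By this count the ISRE was present on either strand in 3.78% of all these genes, in 5.32% of those called higher and in 3.14% of those called lower. It was present in 53 of 355 genes over 4-fold higher (14.9%), in 14 of 210 genes over 4-fold lower (6.67%) and in 20 of 42 interferon effectors (47.6%). Outside the interferon and class I lists these shares were 8.17% for genes over 4-fold higher, 6.67% for genes over 4-fold lower and 3.42% for all genes. TTCNNNGAA, the gamma-activated element (GAS), whose matches may overlap those of the ISRE, was counted in the same way. It was present in 8.46% of all these genes, 9.51% of those called higher and 7.78% of those called lower. The GAS was present in 12.7% of genes over 4-fold higher, 8.57% of those over 4-fold lower and 16.7% of the interferon effectors.

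Upstream of the effectors, 23 of 28 genes of interferon sensing and signalling were higher in KD2, 1 was lower and 4 were not called, with a median of 0.74. Irf7, the transcription factor that amplifies interferon production, was at 15.7, 16.2 and 13.4 CPM in KD1, 152, 255 and 163 CPM in KD2 and 48.6, 52.8 and 51.1 CPM in SCR (3.65 ± 0.19, edgeR adjusted p = 1.59e-07). Stat2 and Irf9, which carry the interferon signal to DNA, were higher by 2.69 ± 0.19 and 2.31 ± 0.09. Among the RNA sensors, Dhx58 was higher by 3.66 ± 0.18 and Ddx58 (RIG-I) by 2.73 ± 0.18.

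The receptors, adaptors and inhibitors of the pathway showed small differences or were not called. The receptor chains Ifnar1 (0.29 ± 0.06) and Ifnar2 (0.27 ± 0.07) were slightly higher in KD2. The adaptor Mavs (-0.05, adjusted p = 0.653), the factor Irf3 (0.10, adjusted p = 0.210), the kinase Tyk2 (0.24, adjusted p = 0.0510) and the inhibitor Socs1 (0.18, adjusted p = 0.0663) were not called by edgeR. Socs3 was the member called lower, at -0.21 ± 0.07, and its call was lost without KD1 replicate 2 or 3 or KD2 replicate 1 or 3. Interferon beta itself, Ifnb1, was near the limit of detection in every library: 2 counts over the KD1 libraries, 46 over those of KD2 and 7 over those of SCR, a KD2 to KD1 ratio of 22.4 (95% counting interval 5.85 to 190).

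The Gbp and Irg GTPases, which attack vacuoles that hold pathogens, followed the effectors. Of 17 tested, 15 were higher and 2 lower, with a median of 2.83. Gbp3 was at 9.29, 10.2 and 8.13 CPM in KD1 and 71.6, 112 and 70.5 CPM in KD2 (3.19 ± 0.18), and Igtp was higher by 3.21 ± 0.20. Gbp4 (-0.81 ± 0.19) and Gbp8 (-0.82 ± 0.25) were the lower members, and 1 of these 2 calls was lost without KD1 replicate 3 or KD2 replicate 1. Several of these genes, and the Oas1, H2-Q and Gsta families, have near-identical copies, so the split of reads among their members is uncertain.

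In class I antigen presentation, which shows peptides from inside the cell to T cells, 22 of 24 genes were higher in KD2 and none was called lower, with a median of 1.00. Psmb8, the interferon-inducible catalytic subunit of the immunoproteasome, was almost absent from KD1 at 0.0999, 0.0468 and 0.0865 CPM, against 12.6, 16.5 and 12.3 CPM in KD2 and 12.8, 10.5 and 12.9 CPM in SCR. Its log2 fold change was 7.43 ± 0.25 (edgeR adjusted p = 6.38e-12). The peptide transporter gene Tap1, which neighbours Psmb8 and shares a promoter region with Psmb9, was at 3.62, 2.95 and 3.20 CPM in KD1 and 23.1, 37.2 and 23.4 CPM in KD2 (3.09 ± 0.19). The chains of the class I molecule differed less: H2-D1 by 0.99 ± 0.07, H2-K1 by 0.87 ± 0.07 and the light chain B2m by 0.84 ± 0.08, from 482, 503 and 456 CPM in KD1 to 810, 953 and 821 CPM in KD2.

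NF-kB, the transcription factor family behind most inflammatory genes, gave a different order of the 3 groups in summed CPM. Of 27 genes of the pathway and its targets, 22 were higher in KD2 and 2 lower (Sod2 and Cd40), with a median of 0.73. The lower members numbered 1 without KD1 replicate 2 or KD2 replicate 1. The CPM of the whole list summed to 1255 to 1396 in KD1, 2163 to 2305 in KD2 and 2368 to 2434 in SCR, so by this sum KD2 lay close to SCR and below it. Measured against the KD1 mean on the log2 scale, the median tested member stood at 0.77, 0.84 and 0.66 in the KD2 libraries. In the SCR libraries it stood at 0.77, 0.92 and 0.88, so by the median KD2 and SCR overlapped. Traf1, an adaptor of tumour necrosis factor receptors, was at 3.00, 2.69 and 2.91 CPM in KD1, 26.7, 21.6 and 23.8 CPM in KD2 and 43.1, 43.7 and 43.8 CPM in SCR (3.07 ± 0.10). Bcl3 (2.98 ± 0.14), Relb (1.44 ± 0.08), Nfkbia, the inhibitor that NF-kB induces against itself (1.37 ± 0.08), and Tnfaip3 (1.15 ± 0.07) were higher as well. Of the secreted targets, Mmp9 was higher by 3.44 ± 0.15 and Lcn2 by 2.82 ± 0.19.

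Chemokines, the secreted proteins that attract leukocytes, were higher in KD2 in 11 of 15 tested, lower in 2 and not called in 2, with a median of 1.89. Ccl2, which attracts monocytes, was at 0.425, 0.679 and 0.375 CPM in KD1, 28.8, 26.2 and 29.8 CPM in KD2 and 118, 112 and 108 CPM in SCR. It differed by 5.81 ± 0.14 on the log2 scale (edgeR adjusted p = 1.52e-13) and its 3 groups did not overlap. Cxcl1 (1.89 ± 0.11) and Cxcl5 (1.85 ± 0.10), which attract neutrophils, had the same order with SCR highest: Cxcl1 was at 17.2, 18.4 and 21.3 CPM in KD1, 74.9, 57.5 and 77.9 CPM in KD2 and 215, 203 and 214 CPM in SCR.

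Ccl5 and Cxcl10, which attract T cells, had KD2 highest instead. Ccl5 was at 3.20, 3.25 and 3.17 CPM in KD1, 34.4, 34.9 and 34.5 CPM in KD2 and 18.4, 17.8 and 18.2 CPM in SCR (3.43 ± 0.08). Cxcl10 was at 4.62, 5.13 and 5.04 CPM in KD1, 47.2, 57.0 and 47.4 CPM in KD2 and 13.4, 11.1 and 14.3 CPM in SCR (3.35 ± 0.11). Ccl4 had no counts in KD1 and 75 in KD2, at least 24.3-fold higher against a floor of 3 counts over the group. The lower members were Cx3cl1 (-0.84 ± 0.14) and Cxcl12 (-0.33 ± 0.07).

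**Figure D2:**
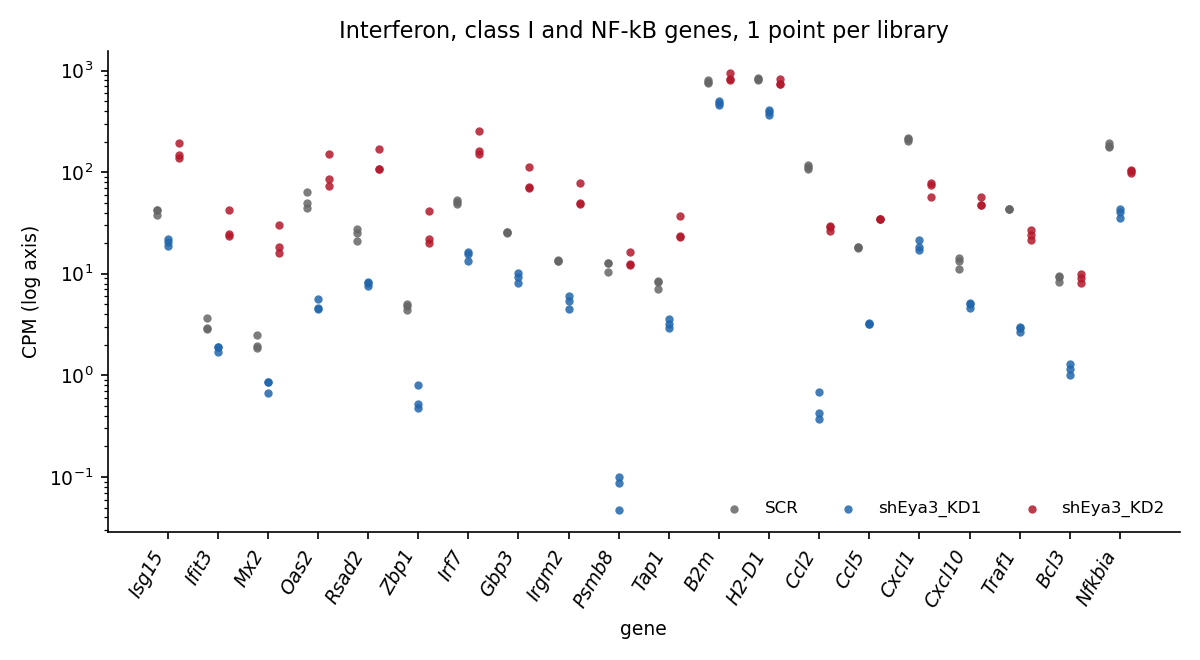
Level in CPM (vertical log axis) of 20 interferon, class I and NF-kB genes, with 1 point per library for SCR (grey), KD1 (blue) and KD2 (red). KD2 lies above SCR for interferon genes such as Isg15 and Oas2, whereas SCR lies above KD2 for Ccl2, Cxcl1 and Traf1.

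Among 17 cytokines and growth factors that act on myeloid cells, 8 were higher in KD2 and 1 was lower, a median of 0.22 (0.36 without KD1 replicate 1). Csf1, the macrophage growth factor, was at 364, 348 and 323 CPM in KD1 and 610, 737 and 576 CPM in KD2 (0.89 ± 0.09). Csf3, the neutrophil growth factor, was at 0.150, 0.211 and 0.375 CPM in KD1 and 1.46, 1.29 and 1.25 CPM in KD2 (2.48 ± 0.30). The lower member was Spp1 (osteopontin, a secreted phosphoprotein of matrix and inflammation), at 1800, 1919 and 1848 CPM in KD1, 417, 444 and 418 CPM in KD2 and 283, 297 and 287 CPM in SCR (-2.12 ± 0.07, edgeR adjusted p = 2.31e-12).

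Of 18 ligands for NK cell receptors and immune checkpoints, 8 were higher and 3 lower. Clec2d, a ligand of an inhibitory NK receptor, was at 0.150, 0.0702 and 0.144 CPM in KD1 and 3.18, 5.06 and 5.05 CPM in KD2 (5.16 ± 0.30). Cd48 (3.02 ± 0.17), Pvr (1.21 ± 0.07), Cd47, the signal against phagocytosis (1.06 ± 0.09), and Cd274, which encodes PD-L1 (0.96 ± 0.16), were higher in KD2. Vtcn1, the checkpoint ligand B7-H4, was at 6.24, 5.29 and 6.46 CPM in KD1 and 0.819, 0.628 and 0.708 CPM in KD2 (-3.02 ± 0.16).

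The cultures were also read for RNA of other cell types, because bulk libraries cannot tell fewer cells of a type from less RNA per cell. Of 20 macrophage markers 7 passed the filter, of which Cd68, Cd14 and Mrc1 were higher and Lyz2 and Ptprc lower. The whole list summed to 35.6 to 39.8 CPM in KD1, 34.5 to 40.7 CPM in KD2 and 80.4 to 82.5 CPM in SCR, so the hairpin groups overlapped. Adgre1, C1qa and C1qc had no counts in either hairpin group. Of 14 lymphocyte markers 2 passed the filter, and the list summed to 1.38 to 1.59 CPM in KD1 and 0.554 to 0.761 CPM in KD2. The 11 endothelial markers summed to 3.12 to 4.14 CPM in KD1 and 2.32 to 3.18 CPM in KD2, and the 10 fibroblast markers to 43.2 to 45.8 CPM and 28.8 to 41.7 CPM. The part of these markers in the differences above was not tested.

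Nrf2 is the transcription factor of the antioxidant response, and its target genes formed a further list that was mostly higher in KD2. Of 35 antioxidant and glutathione genes, 28 were higher and 3 lower (5 without KD2 replicate 3), with a median of 0.58. Slc7a11, which imports cystine for glutathione synthesis, was at 24.9, 32.0 and 30.1 CPM in KD1 and 162, 175 and 145 CPM in KD2 (2.47 ± 0.12, edgeR adjusted p = 1.91e-09), with SCR at a mean of 66.9 CPM. The glutathione transferase Gsta1 was at 3.70, 3.86 and 3.83 CPM in KD1 and 61.9, 44.2 and 68.7 CPM in KD2 (3.94 ± 0.16).

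Other members had smaller differences in the same direction. Gsta4 was higher by 2.39 ± 0.11, the quinone reductase Nqo1 by 2.24 ± 0.15, Osgin1 by 2.50 ± 0.23, the sulfiredoxin Srxn1 by 1.5 ± 0.07, the thioredoxin reductase Txnrd1 by 1.41 ± 0.07, the haem oxygenase Hmox1 by 1.03 ± 0.07 and Gclm, a subunit of the first enzyme of glutathione synthesis, by 0.61 ± 0.07. The iron storage gene Fth1 had the greatest gain in CPM of all named genes, from a mean of 6781 ± 215 CPM (SD, n = 3) in KD1 to 9138 ± 269 CPM in KD2, a log2 fold change of 0.43 ± 0.07. Slc40a1, which exports iron, was at 3.20, 3.00 and 3.20 CPM in KD1 and 26.9, 27.8 and 24.7 CPM in KD2 (3.08 ± 0.09).

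**Figure D3:**
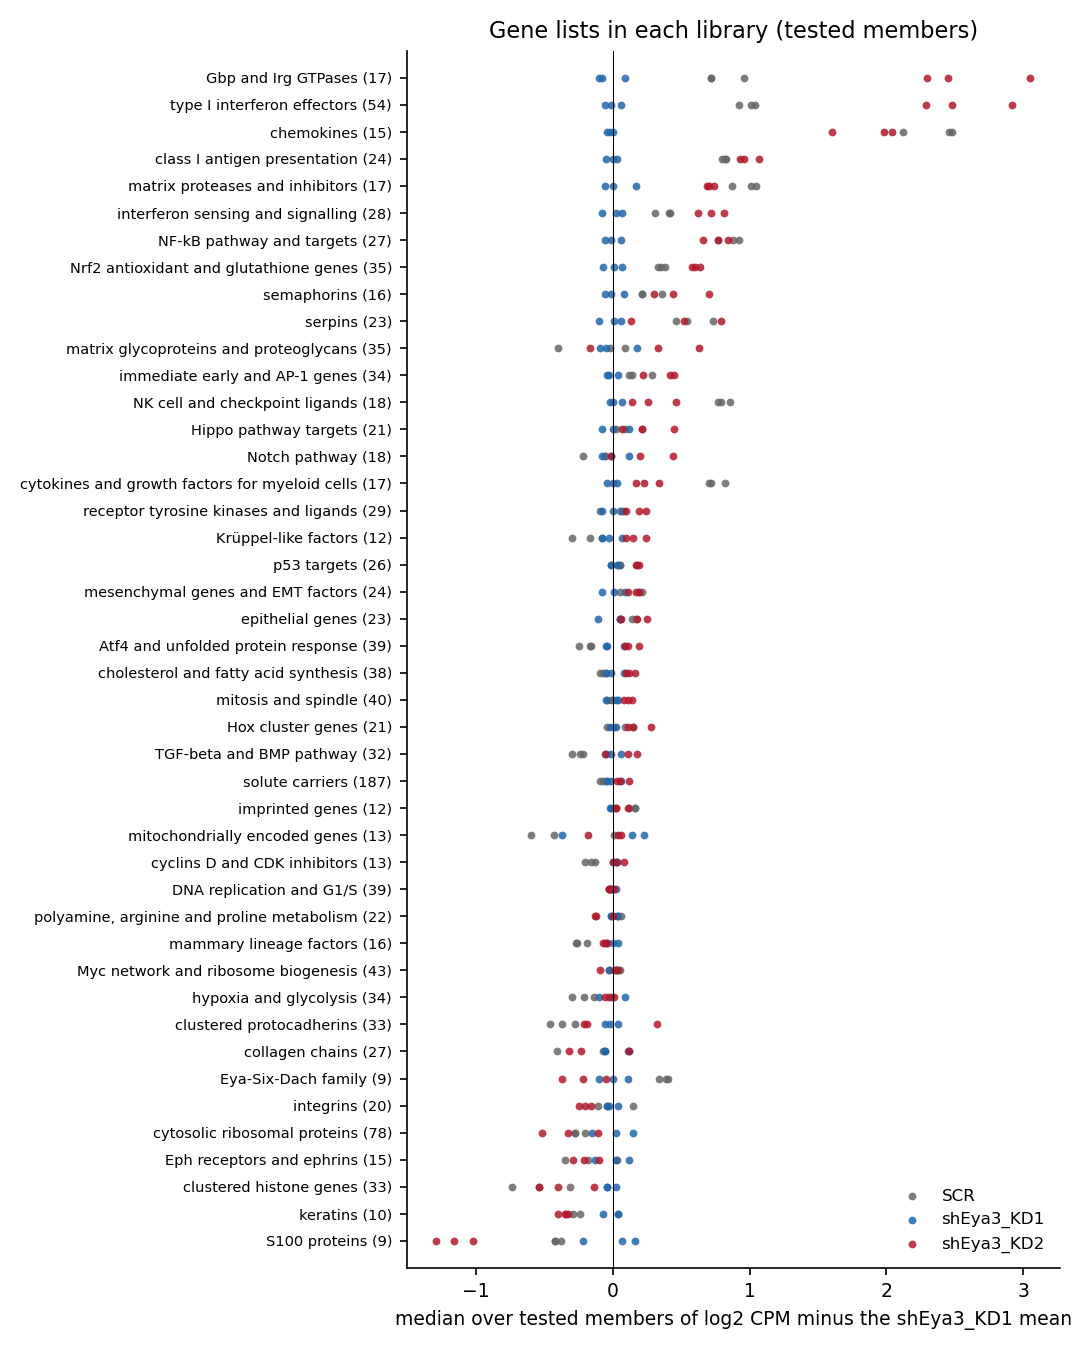
Median over the tested members of each gene list of log2 CPM minus the KD1 mean (horizontal axis), for lists with at least 9 tested members (number in brackets), with 1 point per library for SCR (grey), KD1 (blue) and KD2 (red). The interferon effectors lie at 2.29 to 2.92 in KD2 and 0.92 to 1.04 in SCR, whereas the chemokines have SCR to the right of KD2 and the S100 proteins lie to the left.

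Other metabolic and stress lists had no common direction. In the Atf4 and unfolded protein response 17 of 39 genes were higher and 9 lower (5 without KD2 replicate 1, median 0.14), with Chac1, which degrades glutathione, higher by 1.23 ± 0.11. In cholesterol and fatty acid synthesis 17 of 38 were higher and 10 lower (median 0.12), and none was over 2-fold in either direction. Hypoxia and glycolysis genes were higher in 7 of 34 (11 without KD1 replicate 1) and lower in 12 (median -0.04, or -0.02 without KD1 replicate 1). Car9, the carbonic anhydrase of hypoxic tumour cells, was at 122, 101 and 97.2 CPM in KD1 and 38.9, 47.6 and 39.5 CPM in KD2 (-1.35 ± 0.15), and Ldha differed by -0.60 ± 0.07. Odc1, the first enzyme of polyamine synthesis, was at a mean of 722 CPM in KD1, 1315 CPM in KD2 and 2754 CPM in SCR (0.86 ± 0.07), within a list of 22 genes of which 5 were higher and 7 lower. The lower members of that list numbered 3 without KD1 replicate 2 and 4 without KD2 replicate 2. Called members made up 66.7%, 71.1%, 55.9% and 54.5% of the Atf4, cholesterol, hypoxia and polyamine lists, against 49.6% of all genes.

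Among the carriers of small molecules, 64 of 187 solute carriers were higher in KD2 and 52 lower (median 0.05, or 0.08 without KD2 replicate 1). Slc39a4, a zinc importer, was at 0.325, 0.281 and 0.288 CPM in KD1, 27.6, 29.2 and 27.2 CPM in KD2 and a mean of 37.7 CPM in SCR (6.54 ± 0.12, edgeR adjusted p = 6.89e-15). Slc38a1, a glutamine importer, went the other way: 58.2, 52.8 and 51.6 CPM in KD1, 1.70, 2.07 and 1.70 CPM in KD2 and 4.86 CPM in SCR (-4.92 ± 0.10). Slc24a3, a potassium-dependent sodium and calcium exchanger, was lower by a similar amount (-4.36 ± 0.14).

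Cell identity genes differed in both directions. Of 23 epithelial genes 10 were higher and 8 lower (78.3% called against 49.6% of all genes, median 0.15), with 6 over 2-fold higher and 7 over 2-fold lower. Of 24 mesenchymal genes 9 were higher and 8 lower (70.8% called, median 0.15). Grhl2, a transcription factor of epithelial cells, was at 1.42, 1.43 and 1.15 CPM in KD1, 15.2, 15 and 14 CPM in KD2 and 61.4 CPM in SCR (3.45 ± 0.10). Krt14, a keratin of basal mammary cells, was at 0.674, 0.374 and 0.634 CPM in KD1 and 14, 10.5 and 10.9 CPM in KD2 (4.41 ± 0.25).

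Other epithelial genes were higher in KD1. Spint2, an inhibitor of membrane serine proteases, was at 54.9, 51.9 and 52.2 CPM in KD1, 4.15, 4.51 and 5.03 CPM in KD2 and 0.0342 CPM in SCR (-3.54 ± 0.11). Trp63, the basal-cell transcription factor p63, had 567 counts over the KD1 libraries, 2 over those of KD2 and 1 over those of SCR, a KD1 to KD2 ratio of 291 (95% counting interval 80.3 to 2411). Krt5, a keratin of basal cells, was at 0.50, 0.585 and 0.432 CPM in KD1 and 0.0390, 0.0369 and 0.0236 CPM in KD2 (-3.83 ± 0.50). Cdh1, the epithelial cadherin, did not pass the filter and reached at most 0.259 CPM in any of the 6 libraries.

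Of 16 mammary lineage factors 6 were higher and 6 lower. Procr, the protein C receptor and a marker of mammary stem-like cells, was at 0.050, 0.0468 and 0.0865 CPM in KD1, 26.0, 22.3 and 27 CPM in KD2 and a mean of 164 CPM in SCR (8.65 ± 0.17, edgeR adjusted p = 3.91e-14). Lgr6, a receptor for R-spondins, was at 0.475, 0.585 and 0.519 CPM in KD1 and 9.19, 9.57 and 8.38 CPM in KD2 (4.09 ± 0.15). The luminal progenitor factor Sox9 was lower, from 17.4, 16.2 and 16 CPM in KD1 to 5.54, 5.43 and 5.12 CPM in KD2 (-1.63 ± 0.12).

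Mesenchymal genes were split in the same manner. Pdgfrb, the receptor of platelet-derived growth factor, was at 13.4, 12 and 10.1 CPM in KD1 and 2.32, 3.88 and 2.12 CPM in KD2 (-2.15 ± 0.19). Postn, a matrix protein of activated stroma, was below 1 CPM in both (-4.50 ± 0.44). Loxl1, which crosslinks elastin, was higher by 2.09 ± 0.11, and Sparc, a collagen-binding glycoprotein, by 1.04 ± 0.06, from 197, 213 and 193 CPM to 418, 405 and 415 CPM. Vim, the mesenchymal intermediate filament, differed by -0.36 ± 0.07.

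Collagen chains were lower in 11 of 27 and higher in 7, and their median of -0.12 moved with single libraries. It was -0.24 without KD2 replicate 1 or 2, -0.05 without KD2 replicate 3, -0.19 without KD1 replicate 2 and -0.07 without KD1 replicate 1, and measured against the KD1 mean KD2 replicate 2 stood at 0.12 and KD2 replicates 1 and 3 at -0.23 and -0.32. Col5a2 was at 32.0, 26.6 and 25.2 CPM in KD1, 0.527, 0.702 and 0.685 CPM in KD2 and 0.820 CPM in SCR (-5.48 ± 0.19, edgeR adjusted p = 3.12e-11). Col1a2, a chain of type I collagen, was at 4.47, 4.05 and 5.07 CPM in KD1 and 0.117, 0.185 and 0.0708 CPM in KD2 (-5.24 ± 0.25), whereas its partner chain Col1a1 was higher by 0.88 ± 0.21. Col12a1 differed by -5.17 ± 0.36, and by -6.44 without KD2 replicate 1, which held most of its few KD2 counts. Col6a5, a chain of the beaded type VI collagens, was at 63.6, 51.4 and 53.8 CPM in KD1 and 282, 366 and 237 CPM in KD2 (2.39 ± 0.17).

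Of 35 matrix glycoproteins and proteoglycans 15 were higher and 8 lower (median 0.41). That median was 0.15 without KD2 replicate 2, 0.21 without KD1 replicate 3 and 0.23 without KD2 replicate 1. Thbs1, thrombospondin 1, was at 449, 351 and 349 CPM in KD1, 128, 167 and 108 CPM in KD2 and 19.3 CPM in SCR (-1.51 ± 0.17). Ltbp4, which tethers latent TGF-beta to the matrix, was higher by 1.99 ± 0.11 and Tnxb, a tenascin, by 3.65 ± 0.13. Among 17 matrix proteases and their inhibitors 11 were higher and 4 lower (median 0.79). Mmp24, a membrane metalloprotease, was at 0.50, 0.491 and 0.346 CPM in KD1, 68.9, 68.7 and 63.4 CPM in KD2 and a mean of 124 CPM in SCR (7.21 ± 0.11, edgeR adjusted p = 1.98e-15). The stromelysin Mmp10 was lower (-2.47 ± 0.13).

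Of 23 serpins, a family of protease inhibitors, 10 were higher and 7 lower. Serpina1a, alpha-1 antitrypsin, was at 51.1, 49.6 and 49.0 CPM in KD1, 0.137, 0.259 and 0.189 CPM in KD2 and 0.772 CPM in SCR (-8.07 ± 0.13, edgeR adjusted p = 4.05e-15). Its near-identical neighbours were lower with it, so reads may be shared among the copies. Serpinb9b was higher, from 17, 18 and 21.8 CPM to 135, 111 and 166 CPM (2.86 ± 0.14).

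Adhesion and guidance genes gave large single differences. Cdh17, a cadherin of gut epithelium, was at 1.80, 1.33 and 1.59 CPM in KD1 and 43.8, 37.1 and 40.6 CPM in KD2 (4.69 ± 0.11), and Cdh26 was lower (-2.79 ± 0.11). Sema3a, a secreted repellent of axons and endothelial cells, was at 171, 160 and 155 CPM in KD1, 14.5, 17.3 and 15.2 CPM in KD2 and 12.8 CPM in SCR (-3.38 ± 0.09). Of the 16 semaphorins, 8 were higher and 3 lower: Sema6a (3.04 ± 0.23) and Sema3c (1.60 ± 0.10) were higher. Integrins were lower in 7 of 20 and higher in 3 (5 without KD2 replicate 3), and Eph receptors and ephrins lower in 7 of 15 and higher in 4.

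In signalling pathways, single feedback genes and receptors differed beside lists of mixed direction. Id2, an inhibitor of bHLH factors induced by BMP signals, was at 132, 129 and 131 CPM in KD1, 25.5, 22.5 and 26.8 CPM in KD2 and 26.6 CPM in SCR (-2.39 ± 0.07), within a TGF-beta and BMP list of 14 higher and 9 lower of 32. The secreted antagonists Grem1 (-1.60 ± 0.13) and Fst (-1.32 ± 0.08) were lower too. Fzd1, a Wnt receptor, was at 68.8, 68.3 and 63.0 CPM in KD1 and 15.3, 17.8 and 14.1 CPM in KD2 (-2.09 ± 0.08), and the ligand Wnt7b was lower by a log2 change of -1.37 ± 0.08.

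In the Notch list 8 of 18 genes were higher and 6 lower. Hey2, a Notch effector, had 168 counts in KD1 and none in KD2 or SCR, at least 57.5-fold lower in KD2, and Hes1 differed by -0.96 ± 0.12. Among 29 receptor tyrosine kinases and ligands 14 were higher and 6 lower, with Fgfr1 at 33.1, 26.9 and 25 CPM in KD1 and 6.14, 9.12 and 5.97 CPM in KD2 (-2.03 ± 0.15) and Erbb3 higher by 1.41 ± 0.12. Targets of the Hippo pathway were called higher more often than lower: of 21 tested, 11 were higher, 4 lower and 6 not called. With 1 library left out, the number called higher ranged from 9 to 15. When more than 1.5-fold was required, 2 were called higher and 1 lower. The median of the 21 was 0.26, or 0.14 without KD2 replicate 2. Ankrd1 was higher by 1.29 ± 0.08, Ccn2 was lower (-1.16 ± 0.10) and Ccn1 was at 0.00 (edgeR adjusted p = 0.991).

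Immediate early and AP-1 genes were higher in 20 of 34 and lower in 10 (median 0.34). Egr1 was at 3.60, 4.31 and 3.78 CPM in KD1 and 20.6, 25.3 and 13.1 CPM in KD2 (2.32 ± 0.38), and its relative Egr3 was at 2.55, 2.11 and 2.54 CPM in KD1 and 0.0975, 0.296 and 0.118 CPM in KD2 (-3.96 ± 0.35). Jund was higher by 1.02 ± 0.07. Klf2, a zinc-finger factor, was at 16.6, 13.7 and 13.0 CPM in KD1 and 2.05, 2.22 and 2.12 CPM in KD2 (-2.77 ± 0.14).

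Growth and cell cycle lists had medians near 0. Mitosis and spindle genes were called higher more often than all genes (42.5% against 27%), and DNA replication and Myc network genes less often. DNA replication genes were higher in 7 of 39 and lower in 9, the Myc network and ribosome biogenesis in 6 and 11 of 43 (7 lower without KD1 replicate 2), and mitosis and spindle genes in 17 and 7 of 40 (12 lower without KD2 replicate 3), with medians of 0.01, -0.03 and 0.11. Leaving out any 1 library kept these 3 medians between -0.05 and 0.15. Myc itself was higher by 0.42 ± 0.07. Ccnd1, cyclin D1, was at 3021, 2859 and 2590 CPM in KD1 and 1894, 1931 and 1723 CPM in KD2 (-0.61 ± 0.07). Cdkn1a, the p21 inhibitor, was at 0.01 (edgeR adjusted p = 0.955). Of 26 p53 targets 12 were higher (46.2%, against 27% of all genes) and 4 lower, with a median of 0.17. Plk2 led those that were higher (1.73 ± 0.08). Cdkn2a had 1 count over the KD1 libraries, 54 over those of KD2 and 1 over those of SCR, a ratio of 52.5 (95% counting interval 9.04 to 2114).

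Ribosomal protein genes were called in 1 direction only. Of 78 cytosolic ribosomal protein genes none was higher and 41 were lower (52.6%, against 22.5% of all genes), with a median of -0.31. Only 1 was called lower when more than 1.5-fold was required. The CPM of the list summed to 73393, 81074 and 86984 in KD1 and 64629, 57166 and 73967 in KD2. The count of lower members was 26 without KD1 replicate 3 and 65 without KD2 replicate 3, and KD2 replicate 3 lay above KD1 replicate 1. Of 33 clustered histone genes 8 were lower (24.2%, against 22.5% of all genes) and none higher, and none of the 8 reached 5 CPM in 3 libraries. Of 13 mitochondrially encoded genes 1 was lower and none higher. Processed pseudogenes, many of them copies of such transcripts, were called higher in 110 and lower in 343 of 1827, against 3903 and 2794 of 12052 protein-coding genes. RNA quality was not measured, and its part in these counts was not tested.

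The largest differences of all were found in genes near 0 in 1 of the cultures. Tysnd1, a peroxisomal protease (chromosome 10, 61695514 to 61702773), had no counts in KD1 and 15.3, 13.1 and 14 CPM in KD2, at least 562-fold higher, against a mean of 14.2 CPM in SCR. Dnah7a, a dynein heavy chain of cilia, was at least 384-fold higher, and Gypc, the membrane sialoglycoprotein glycophorin C, at least 459-fold higher. Acss3, a mitochondrial acyl-CoA synthetase, had 2 counts in KD1 and 2595 in KD2, a ratio of 1263 (95% counting interval 349 to 10432). Pomgnt2, a glycosyltransferase, had a ratio of 569 (102 to 22524) and Ksr2, a scaffold of the MAP kinase pathway, one of 537 (96.0 to 21255).

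In the other direction, Cldn1, the tight junction protein claudin 1, had 419 counts in KD1 and none in KD2, at least 144-fold lower, with 1 count in SCR. Pid1 was at least 120-fold lower, and Cd36, a fatty acid and thrombospondin receptor, at least 106-fold lower. Nox4, an NADPH oxidase, had 468 counts in KD1 and 1 in KD2, a ratio of 481 (95% counting interval 85.9 to 19035). Tex101, a glycoprotein of germ cells, was at 22.6, 23.8 and 23.5 CPM in KD1 and 0.0585, 0.185 and 0.0472 CPM in KD2 (-8.08 ± 0.23, or -8.69 without KD2 replicate 2).

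By a rule of at least 1 CPM in each library of one culture and at most 0.1 CPM in each of the other, 73 genes were on in 1 culture and off in the other. Of these, 43 were on in KD2 and off in KD1. In the scrambled control 32 of the 43 were on, 7 lay between the limits and 4 were off, the last being Anxa6, Crhr2, Dmrtc1a and Mup21. The other 30 were on in KD1 and off in KD2. Of those, 2 were on in SCR (Cd36 and Pcdh9), 9 lay between and 19 were off. The genes off in KD1 were thus mostly on in the control cells, and those off in KD2 mostly off in the control cells.

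**Figure D4:**
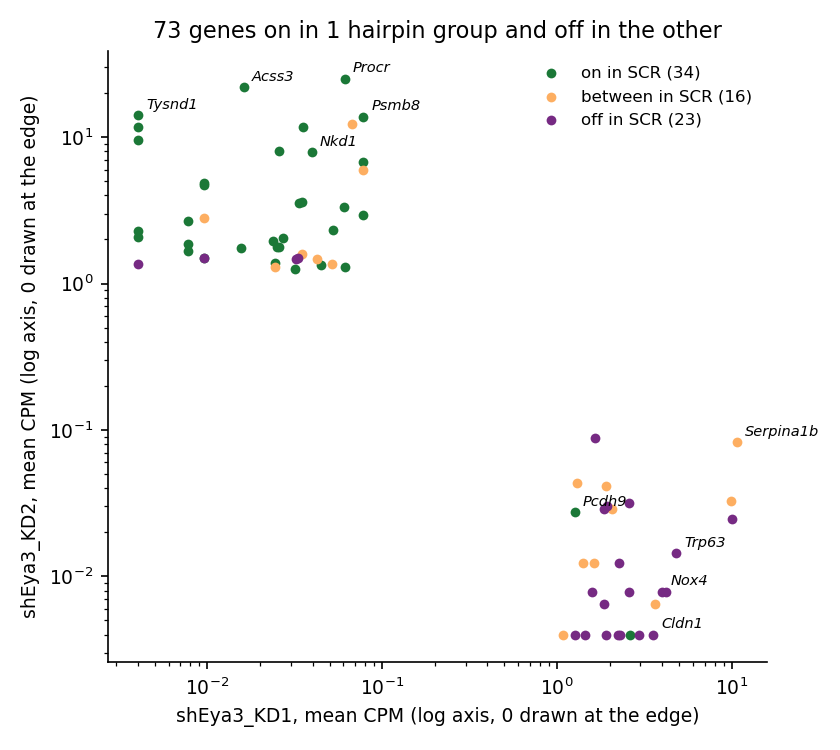
Mean CPM in KD1 (horizontal log axis) and KD2 (vertical log axis) of the 73 genes that were on in 1 culture and off in the other, coloured by their state in SCR, with means of 0 drawn at the edge. The 43 genes at the upper left include Procr, Acss3 and Tysnd1 and are mostly on in SCR, and the 30 at the lower right include Serpina1b, Trp63 and Cldn1 and are mostly off in SCR.

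Some of these genes were neighbours. Of the 197 genes over 16-fold higher 63 had another such gene within 1 Mb, as did 26 of the 100 over 16-fold lower. The same share was not worked out for all genes tested or for sets of equal size, so these counts do not show clustering. Some of the neighbours were copies within a family, such as Mx1 and Mx2 or the Serpina1 genes, or overlapping genes, such as Tmtc2 and Gm15663. The following stretches were picked out after their values were seen. On chromosome 16, Tprg (25286817 to 25422344), Trp63 (25683763 to 25892102), P3h2 (25959288 to 26105784) and Cldn1 (26356642 to 26371841) stand in a row, with 217, 567, 131 and 419 counts over the KD1 libraries, 4, 2, 0 and 0 over those of KD2 and 9, 1, 1 and 1 over those of SCR. The next gene tested on the far side, Il1rap, was higher in KD2 by only 0.44 ± 0.10, and Ccdc50 beyond it differed by -0.20 ± 0.06.

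On chromosome 10, Tmtc2, Acss3, Ptprq, Otogl and Syt1 were higher in KD2, with 3, 2, 6, 17 and 1 counts over the KD1 libraries and 231, 2595, 80, 41 and 79 over those of KD2. Over the SCR libraries these genes had 1114, 1310, 310, 132 and 628 counts, and the SCR mean lay above both hairpins in all but Acss3. Mettl25 (-0.08) and Ccdc59 (-0.03), which lie among them, were not called, and Ppp1r12a was higher by 0.61 ± 0.08. Pawr, also among them, was lower (-0.28 ± 0.07). Procr and Mmp24 lie close together on chromosome 2 (155751117 to 155755471 and 155775342 to 155818366). Airn, an antisense RNA, had no counts in KD1 and 51 in KD2, and Igf2r on the opposite strand was lower in KD2 (-1.27 ± 0.20), but the strand setting of the counts is not given in the sources used here and reads of the pair cannot be told apart.

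Smaller differences were gathered on certain chromosomes. Chromosome 3 had a median log2 fold change of -0.42 over 823 genes tested, of which 456 were lower and 80 higher. It held 5.18% of the genes tested and 12.7% of all genes called lower. Chromosomes 5 (-0.19) and 17 (-0.17) were lower and chromosome 10 (0.11) was higher, while the others lay between -0.04 and 0.10. Outside chromosomes 3, 5 and 17, 29.8% of 13213 genes were higher and 18.4% were lower. The chromosome 3 median lay between -0.41 and -0.40 when each library in turn was set against the mean of the other culture. DNA copy number was not measured.

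Segments chosen after their values were seen are given with each culture also set against the control. Over 450 genes of chromosome 3 between 90 and 160 Mb the median was -0.49 for KD2 against KD1, 0.42 for KD1 against SCR and -0.06 for KD2 against SCR. Over 97 genes between 20 and 50 Mb of the same chromosome it was -0.42, with 0.02 for KD1 and -0.44 for KD2 against SCR. The first 30 Mb of chromosome 5 gave -0.45 over 134 genes, with 0.52 for KD1 and 0.07 for KD2, and chromosome 10 from 70 to 130 Mb gave 0.20 over 465 genes, with -0.51 and -0.32. These values share the SCR libraries and are given side by side as a description.

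The S100 calcium-binding proteins, of which all 9 tested lie on chromosome 3, were lower in 8 of 9 with a median of -1.32, a larger difference than the chromosome's median of -0.42. S100a6 was at 1560, 1812 and 1983 CPM in KD1, 862, 725 and 972 CPM in KD2 and 999 CPM in SCR (-1.07 ± 0.10, edgeR adjusted p = 1.28e-06). S100a4, a marker of motile cells, was at 111, 136 and 162 CPM in KD1 and 47.8, 38.9 and 60.2 CPM in KD2 (-1.47 ± 0.16).

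**Figure D5:**
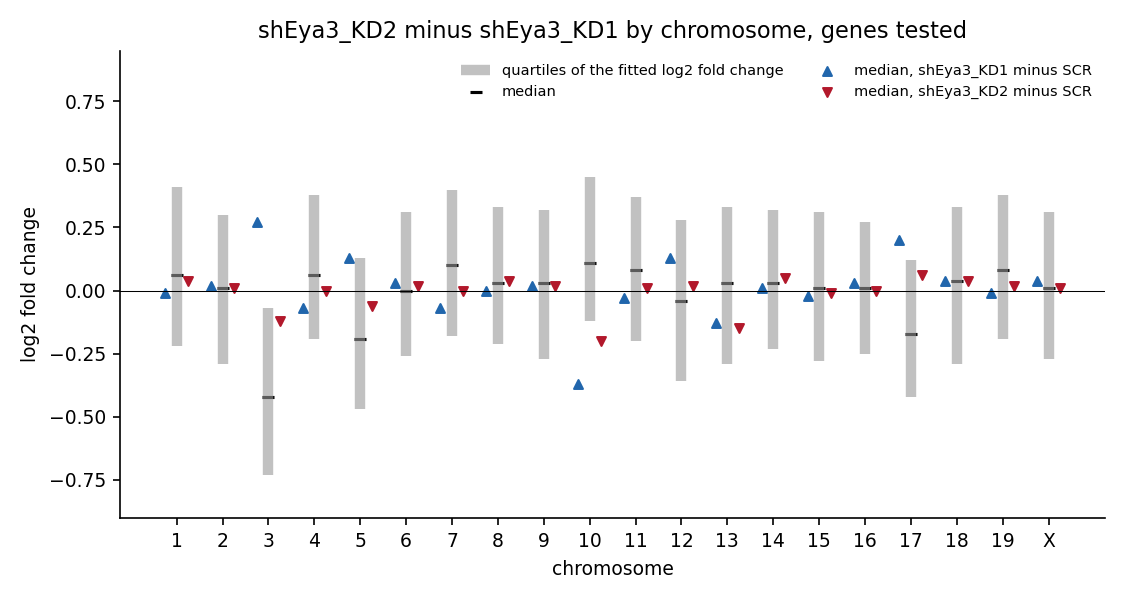
Fitted log2 fold change of KD2 minus KD1 by chromosome (median as a dash, quartiles as a grey bar), with the chromosome medians of KD1 minus SCR (blue triangles) and KD2 minus SCR (red triangles), over the genes tested. Chromosome 3 stands lowest at -0.42 and chromosome 10 highest at 0.11.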

How the data were processed

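Libraries of cultured 66cl4 cells were made with a NuGEN kit for mRNA, per the labels' protocols. The submitters' processing notes name FastQC, MultiQC and STAR and the build mm10 but give no versions. Which program counted the reads, on what annotation and with what strand setting is not given in the sources used here. For 55418 gene symbols the authors deposited raw counts, and these deposited counts were used unchanged; totals per library ran from 27758862 to 52691960. All symbols matched GENCODE M21 (115 with more than 1 gene), which gave the coordinates. Of the 225 genes picked by the naming rule, 46 overlap another gene.

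Groups and replicate numbers came from the sample titles. In R 4.3.3, edgeR 4.0.16 kept 15914 genes (filterByExpr), scaled libraries by TMM and fitted all 9 libraries in 1 robust quasi-likelihood model, from which the contrast KD2 minus KD1 was taken at a Benjamini-Hochberg threshold of 0.05. Standard errors come from the fold change and its F statistic. An exact permutation test of 3 against 3 libraries cannot go below 0.1. On simulated data (15576 genes, 200 changed) the model recovered 87% of genes changed 1.5-fold and 97% of those changed 2-fold, and 7.54% of its 199 calls were unchanged genes. The changed genes were drawn only from those with a mean above 1 CPM. Their share was far below the 49.6% called in the data, so these rates cannot be carried over to it. Where a group had no counts, folds were set against 3 counts over that group; with 1 to 3 counts, the ratio has an exact 95% interval. Both cover counting error only.

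The comparison, its 54 gene lists and the rule for named genes (the 12 largest log2 fold changes and 10 largest CPM differences in each direction, and up to 4 members per list, at 1 CPM or more without overlap between libraries) were chosen with earlier results of these data known. Some genes that the rule picks are not reported here. Further members are named for their role and were chosen after their values were seen. Lists are described without a test of their own. Alternatives were other scalings and filters, DESeq2 1.42.0, limma 3.58.1 (voom), a minimum fold of 1.5, a fit of only these groups, thinned counts, a replicate block and each library left out.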

Additional observations from a re-analysis of the deposited data

How the results depend on the processing

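Under the alternatives run, no called gene named by the rule and no call count or chromosome median reported here changed direction. Genes called higher and lower numbered 4157 and 3776 with RLE size factors, 4126 and 3655 with DESeq2, 4287 and 3610 with limma-voom, 4510 and 3813 with no filter, 3270 and 2852 at 5 CPM in 3 libraries, 3689 and 3514 with only the groups compared, and 4166 and 3336 after thinning, but 1264 and 823 when more than 1.5-fold was required. That test also ended the calls of 52 of 225 named genes, Eya3 (0.70, adjusted p 0.192) among them. Of the 225, 168 passed the filter of 5 CPM in 3 libraries, so the rest could not be checked there. DESeq2, no filter and a replicate block each ended the call of 1 named gene, and leaving out a library ended up to 4. With 1 library left out, the calls ranged from 3809 to 4531 higher and from 2912 to 3902 lower, and Eya3 from 0.65 to 0.76. Same-numbered KD1 and KD2 libraries share only a number (their deviations correlated at 0.066, -0.083 and 0.179), and a replicate block gave 4320 and 3697 calls and 0.70 for Eya3. Genes on in KD2 and off in KD1 numbered 72 with the off limit at 0.2 CPM and 21 with the on limit at 2 CPM, where those on in KD1 numbered 13; leaving out a library gave 43 to 48 and 31 to 33. With RLE the medians of chromosomes 3, 5, 10 and 17 were -0.44, -0.20, 0.09 and -0.18, and at 5 CPM chromosome 3 stood at -0.46; with a library left out they ranged from -0.43 to -0.40, -0.20 to -0.18, 0.11 to 0.13 and -0.18 to -0.15. The element TTCNNNGAA was in a promoter window of 9.51% of genes called higher and 8.46% of all genes with a promoter. For the ISRE these shares were 5.32% and 3.78%. The cause of the shifts between alternatives was not tested. Low depth limits genes near 0: Eya4, Dach1, Ifnb1 and Cdkn2a rest on under 1 CPM.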
